A study of Arabidopsis thaliana with 12 samples.

Results

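Heat shock proteins and the factors that control them were followed in seedlings of Arabidopsis thaliana for which the labels state no heat treatment. The set holds 40 of the 27655 genes listed, chosen by locus code. It comprises 14 chaperones of the cytosol, 5 of plastids, 7 of mitochondria, 5 of the endoplasmic reticulum (ER), 1 of peroxisomes, 1 small heat shock protein without an assigned compartment (HSP26.5) and 7 heat shock factors and co-factors. The mutant, geralt, is the T-DNA line SALK_116579, which the sample titles call phr2, and the comparison line is WT Col (N6000). Polyadenylated RNA of whole plants was sequenced in 12 libraries, 3 each of geralt at 5 days, wild type at 5 days, geralt at 12 days and wild type at 12 days. Plants of both genotypes were raised in vitro at 23 °C (B5 medium, sucrose at 1%) under a day of 10 h light, and were harvested about 4 h after the light came on. The mutant is represented by a single line, and the labels do not say how plants were pooled or grown apart, so p-values measure only the spread between these libraries.

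Heat shock proteins are chaperones that keep other proteins from aggregating or help them fold. Small heat shock proteins hold unfolding proteins, HSP70 and HSP60 machines fold them, HSP100 proteins of the ClpB type pull aggregates apart, and HSP90 acts late in folding. Each compartment has its own set, encoded in the nucleus: heat shock factors act through heat shock elements in promoters, ER chaperones also answer to unfolded proteins in the ER, and some genes for mitochondrial proteins answer to mitochondrial dysfunction through NAC factors.

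Gene reads totalled 41.6 M to 115 M per library. PHR2, the gene of the titles, was low in every geralt library: it had 39.7, 20.6 and 28 CPM (counts per 1000000 reads) in geralt, against 207, 89.2 and 271 CPM in wild type, at 5 days, and 30.5, 24.5 and 31.8 CPM in geralt, against 193, 207 and 203 CPM in wild type, at 12 days. EdgeR's adjusted p for PHR2 was 0.0128 at 5 days, with a log2 fold change of -2.68, and 0.0193 at 12 days, with -2.80. Leaving out a library raised the 5-day adjusted p over the threshold for geralt 1 (0.0542), geralt 3 (0.121), geralt 7 (0.098), wild type 2 (0.0602) and wild type 8 (0.0542), and the 12-day one for geralt 5 (0.0559) and geralt 9 (0.0601). On the first axis of a scaling plot over all genes (32.2% of the variation), wild-type library 4 lay at 0.394 beside -0.724 and -0.547 for its group, and geralt library 5 at 2.01 beside -0.0248 and -0.2 for its group. The share of gene reads in introns was 1.00% to 1.40% in geralt and 0.834% to 0.901% in wild type at 12 days, without overlap, and 0.903% to 1.49% in geralt and 0.794% to 1.24% in wild type at 5 days. All 10 root markers were tested, and edgeR called 0 of them between genotypes, with 0 at an unadjusted p under 0.05. Their summed level was 136 to 328 CPM in geralt and 138 to 179 CPM in wild type at 5 days, and 137 to 272 CPM in geralt and 61.6 to 544 CPM in wild type at 12 days. Of 10 seed markers, 2 had reads enough for a test, and the seed factor HSFA9 was at 0 in all 12 libraries. The 2 tested seed markers, CRA1 and OLEO1, together had at most 0.589 CPM in geralt and 0.193 CPM in wild type at 5 days. At 12 days their sum was 0.162, 0.0445 and 3.67 CPM in geralt libraries 5, 9 and 11 and 1.18, 0.259 and 10.8 CPM in wild-type libraries 6, 10 and 12. The untested seed markers are not in this sum, and of these AT2S4 had 0.422 CPM in geralt library 9 and 0.407 CPM in wild-type library 6. The part of these differences in the results was not tested. In bulk RNA of whole plants, fewer cells of a type and less RNA per cell cannot be told apart.

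Promoter elements were searched in the 250 bases before each gene's start, on both strands. The mitochondrial dysfunction motif, which NAC factors bind, was taken as CTTG followed after 5 bases by CACG or CAAG. It stood before 5 of 40 members (12.5%), against 1.2% of 27444 nuclear genes. The holders were 3 of 7 mitochondrial members (42.9%) and 2 small heat shock proteins of the cytosol. Of the 4 members with the smallest p between genotypes at 12 days, HSP23.5 and HSP23.6 hold it and MED37C and HSP90-1 do not. The holder HSP17.4A overlapped between genotypes at both ages, and a relation of the motif to the differences was not tested. The sites are shown, each in a window of 30 bases on the strand of the gene, read 5′ to 3′ from the RefSeq assembly TAIR10.1, with the motif in capitals.
HSP23.5, chr5:20891045-20891074, plus strand: ttattttaCTTGGAGACCACGcagttctag
HSP23.6, chr4:12916872-12916901, plus strand: tcacttagCTTGGGAGCCACGgatctctag
HSP70-9, chr4:17828303-17828332, minus strand: acataataCTTGTAGCCCACGaatattttt
HSP17.4A, chr3:16984904-16984933, minus strand: gcgacactCTTGAAAGACACGttataaaga
HSP17.6, chr5:3883310-3883339, minus strand: gttgtacaCTTGTAATCCAAGtcttcagca
The motif began 110 bases before the gene start in HSP23.5, 46 in HSP23.6, 132 in HSP70-9, 58 in HSP17.4A and 220 in HSP17.6. The searched stretches of HSP23.5 and HSP70-9 overlap neighbouring genes.

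A heat shock element of 3 units, GAA and TTC in alternation with 2 bases between units, stood before 4 of 40 members (10%), against 0.386% of nuclear genes. These were the cytosolic small heat shock proteins HSP17.4A and HSP17.6C and the activators HSFA2 and HSFA7A, and HSP17.4A and HSFA7A had 2 elements each. They are shown, 1 site for each gene with the element in capitals, as the members with an exact match of this form in the searched stretch.
HSP17.4A, chr3:16984945-16984974, minus strand: tcaacataGAAGCTTCTTGAAgccacctga
HSP17.6C, chr1:19980238-19980267, plus strand: caacaccaGAAACTTCTTGAAagcacctga
HSFA2, chr2:11135528-11135557, plus strand: ttagtaacGAAGTTTCTGGAAcattgtctt
HSFA7A, chr3:19264991-19265020, plus strand: aaaaccgtTTCCAGAAGTTTCtaatttcta
The element began 99, 53, 88 and 142 bases before the gene start in HSP17.4A, HSP17.6C, HSFA2 and HSFA7A, and the stretches of HSFA2 and HSP17.6C overlap neighbouring genes. The form of 2 units, GAANNTTC or TTCNNGAA, is contained in the longer one and stood before 10 of 40 members (25%), against 16.2% of nuclear genes. By family it stood before 7 of 12 small heat shock proteins (58.3%), 0 of 12 HSP70 members and 0 of 5 HSP90 members. The ER stress response element, CCAAT followed after 10 bases by CACG, stood before 2 of 5 ER members (40%), HSP90-7 and MED37B, against 0.689% of nuclear genes. The site of HSP90-7 is shown with the element in capitals, and its stretch overlaps a neighbouring gene.
HSP90-7, chr4:12556059-12556088, minus strand: accttgctCCAATACAAAACTACCACGtgg
A match describes letters in this window and shows no binding, and these motifs were chosen with results known.

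Levels per gene length, in the authors' TPM (transcript reads scaled by gene length and library size), spanned a wide range between members. MED37E (HSC70-1), a constitutive cytosolic HSP70, was highest at a mean of 2947 TPM over the 12 libraries (1692 to 4245 TPM), and it took 52.9% to 78.6% of the reads of all members in a library. The cytosolic HSP70-3 averaged 281 TPM and the plastid HSP70-6 averaged 260 TPM. The ER chaperone MED37A (BIP1) averaged 123 TPM, the mitochondrial HSP70-9 averaged 84.2 TPM and CPN60, the mitochondrial HSP60, averaged 77.7 TPM. The HSP90s of the ER, mitochondria and plastids stood close together at 75.1 TPM for HSP90-7, 66.6 TPM for HSP90-6 and 55.7 TPM for HSP90-5. Small heat shock proteins were far lower: HSP23.5 of mitochondria averaged 14.6 TPM, HSP17.7 of the cytosol 6.29 TPM, HSP21 of plastids 0.0858 TPM and HSP22.0 of the ER 0.0302 TPM. HSP21 had 41 reads and HSP22.0 had 12 reads in all libraries together, too few for a test, so 38 of the 40 members were tested.

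**Figure D1:**
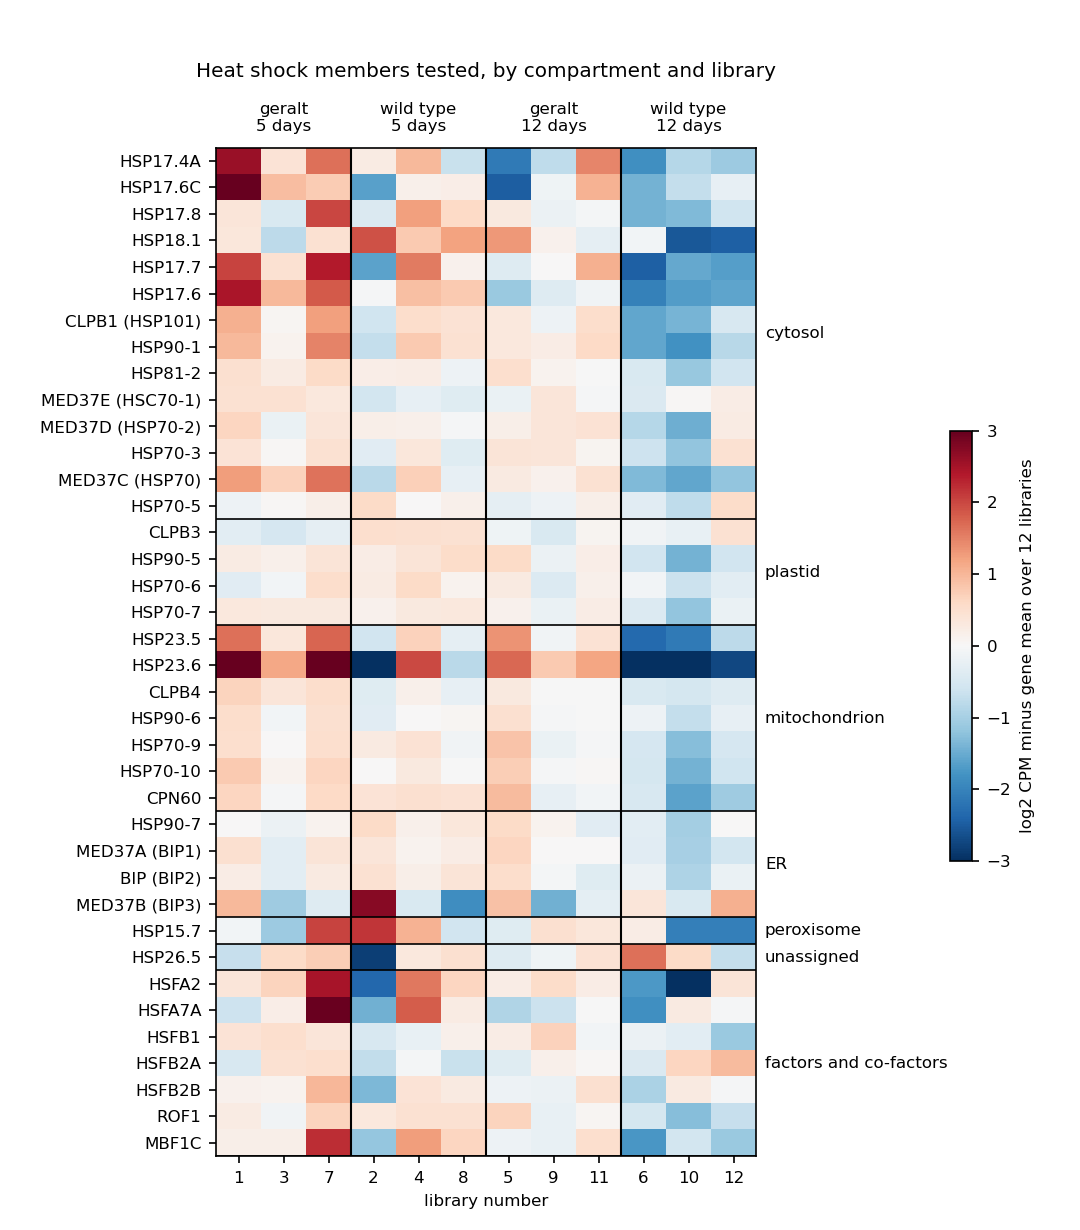
Level of the 38 tested members (down, by compartment) in each of the 12 libraries (across, by group and number), as log2 CPM minus the gene's mean over the libraries (color scale, -3 to 3). Most cytosolic, mitochondrial and plastid members, and MED37A and BIP of the ER, are below their mean (blue) in the 3 wild-type libraries at 12 days. Library 10 is the lowest of that group for 23 of 38 members.

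At 12 days most members had higher values in geralt than in wild type, and at 5 days the difference was smaller and mixed between compartments. The log2 fold change was over 0 for 26 of 38 tested members at 5 days, against 50.6% of all genes tested, and for 33 of 38 at 12 days, against 48.4%. The median over the tested members was 0.42 at 5 days, where that of all genes was 0.01, and 0.94 at 12 days, where that of all genes was -0.02. The 5-day median was 0.15 without geralt library 7, the highest of its group for 24 of 38 members. A member that passed the filter on low counts through the group in which it is high had to differ, so these figures describe the tested members and not all 40. HSP23.6 and HSP17.6C passed it through geralt libraries, so their differences are no support for counts of members higher in geralt.

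EdgeR called no member. Its quasi-likelihood test with Benjamini-Hochberg adjustment called 0 of 38 members at 5 days, where it called 0.26% of all genes, and 0 of 38 at 12 days, where it called 0.8%. At an unadjusted p under 0.05, 6 members were higher and 1 was lower in geralt at 5 days (6.5% and 7.64% of all genes), and 19 were higher and 0 were lower at 12 days (9.47% and 9.49% of all genes). DESeq2 called 4 members at 5 days (4.01% of all genes): CLPB4, MED37C and MED37E as higher and CLPB3 as lower. Limma voom called the same 4 members (6.29% of all genes). At 12 days DESeq2 called 13 members as higher (2.98% of all genes) and 0 as lower, while limma voom called 0 (0.09% of all genes). Every geralt library lay above every wild-type library for 6 members at 5 days (12.9% of all genes) and for 20 members at 12 days (10.2%). Every geralt library lay below every wild-type library for 3 members at 5 days (14.3% of all genes) and for 0 at 12 days (8.91%).

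**Figure D2:**
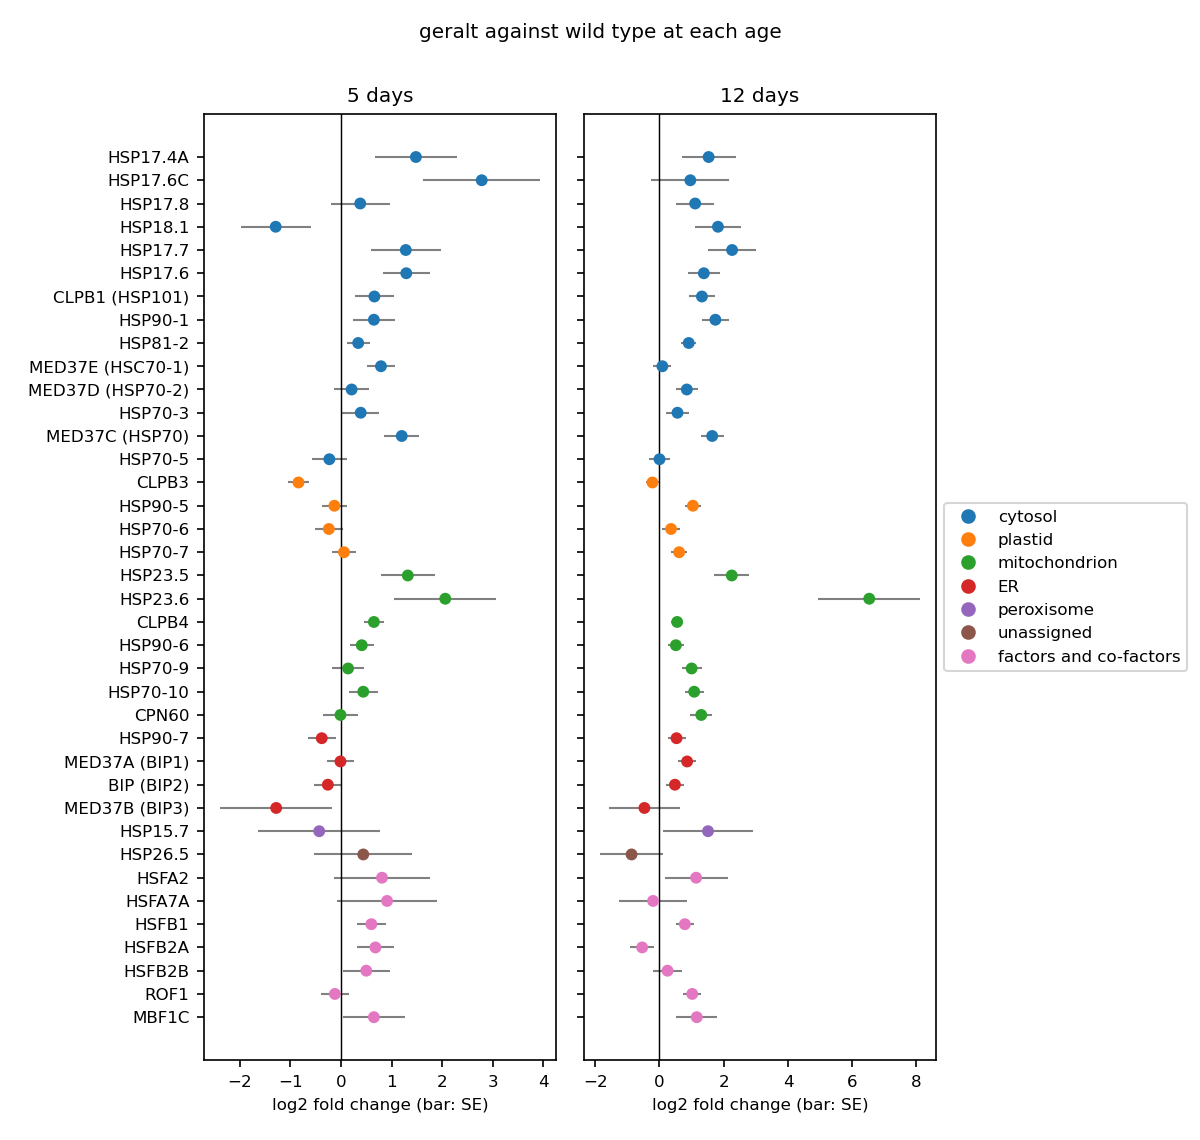
Log2 fold change of geralt against wild type (points; bars, standard errors of the edgeR fit) for the 38 tested members, colored by compartment, at 5 days (left) and 12 days (right, with its own axis range). The 7 mitochondrial points lie right of 0 at 12 days, and the 4 ER points lie left of 0 at 5 days.

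Mitochondrial chaperones were apart between genotypes in 7 of 7 members at 12 days, each higher in geralt, with a median log2 fold change of 1.08; of all genes 10.2% were apart in that direction. HSP23.6 is 1 of these 7 and passed the low-count filter through its geralt libraries, so it does not support that count. At 5 days 1 of 7 was apart as higher (12.9% of all genes) and the median was 0.44. HSP23.5 (AT5G51440, chr5:20891163-20892416, 2 exons), a small heat shock protein of mitochondria, had 18.1, 6.58 and 9.62 CPM in geralt libraries 5, 9 and 11, against 1.38, 1.61 and 4.14 CPM in wild-type libraries 6, 10 and 12, at 12 days. At 5 days it had 22.5, 9.03 and 23.9 CPM in geralt libraries 1, 3 and 7, against 4.77, 11.4 and 5.95 CPM in wild-type libraries 2, 4 and 8. The groups did not overlap at 12 days, and at 5 days wild-type library 4 lay above geralt library 3. The log2 fold change was 2.25 at 12 days (SE 0.55, edgeR adjusted p = 0.0742, 0.00142 to 0.266 over the alternatives) and 1.32 at 5 days (SE 0.53, edgeR adjusted p = 0.28).

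HSP23.6 (AT4G25200, chr4:12916926-12918110, 2 exons), the other small heat shock protein of mitochondria, was nearly without reads in wild type at 12 days. It had 0.938, 0.467 and 0.635 CPM in geralt, against 0, 0 and 0.0119 CPM in wild type, from 105 reads in geralt and 1 read in wild type. The ratio of the summed, depth-scaled reads was 125, with an exact 95% interval of 21.9 to 4974 that covers counting error only. EdgeR's adjusted p was 0.0733 (0.00117 to 0.384 over the alternatives), and 0.0374 without wild-type library 4 of 5 days. At 5 days HSP23.6 had 2.42, 0.62 and 2.53 CPM in geralt, against 0, 1.12 and 0.135 CPM in wild type, where wild-type library 4 was again above geralt library 3 (edgeR adjusted p = 0.386).

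CPN60 (AT3G23990, chr3:8668772-8672578), which folds proteins in the mitochondrial matrix, had 179, 78.3 and 87 CPM in geralt, against 65.6, 30.2 and 43.8 CPM in wild type, at 12 days. At 5 days it averaged 124 ± 29.4 CPM in geralt and 126 ± 3.29 CPM in wild type (SD, n = 3 each). The genotypes were apart at 12 days and overlapped at 5 days. The log2 fold change was 1.30 at 12 days (SE 0.35, edgeR adjusted p = 0.0907, 0.013 to 0.401 over the alternatives) and -0.01 at 5 days (SE 0.34, edgeR adjusted p = 0.99). Without wild-type library 6 the 12-day adjusted p was 0.0475.

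HSP70-9, an HSP70 of the matrix, had 226, 108 and 122 CPM in geralt, against 88.6, 51.1 and 87.8 CPM in wild type, at 12 days, and 178, 127 and 177 CPM in geralt, against 152, 169 and 117 CPM in wild type, at 5 days. Its paralog HSP70-10 had 131, 76.8 and 80.4 CPM in geralt, against 54.6, 29.6 and 52.1 CPM in wild type, at 12 days. HSP90-6, the mitochondrial HSP90, had 173, 123 and 123 CPM in geralt, against 113, 76.3 and 105 CPM in wild type, at 12 days. For these 3 genes each geralt library was above each wild-type library at 12 days, and the groups overlapped at 5 days. Their log2 fold changes were 1.00, 1.08 and 0.51 at 12 days and 0.14, 0.44 and 0.41 at 5 days. Geralt library 5 was the highest geralt library at 12 days for 7 of 7 mitochondrial members. Without it the 12-day median over all tested members was 0.76. Wild-type library 10, the lowest wild-type library for 23 of 38 members, had the highest summed root-marker level, 544 CPM, and without it that median was also 0.76.

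Of the 3 ClpB disaggregases, those of mitochondria and plastids differed in opposite directions between genotypes at 5 days. The cytosolic CLPB1, at a log2 fold change of 0.66, had the same sign as that of mitochondria. CLPB4 of mitochondria (AT2G25140, chr2:10697629-10702203) had 30.2, 24.7 and 27.4 CPM in geralt, against 14.9, 21.4 and 16.1 CPM in wild type. CLPB3 of plastids (AT5G15450, chr5:5014212-5018347), which chloroplast development needs, had 26.2, 22.8 and 27.2 CPM in geralt, against 46.6, 45.5 and 44.4 CPM in wild type. Geralt lay above wild type in every library for CLPB4 and below it in every library for CLPB3. The log2 fold change was 0.65 for CLPB4 (SE 0.19, edgeR adjusted p = 0.149, 0.0222 to 0.482 over the alternatives) and -0.84 for CLPB3 (SE 0.21, edgeR adjusted p = 0.107, 0.0123 to 0.385 over the alternatives). CLPB3 passed with only the groups compared (edgeR adjusted p = 0.0238) and without wild-type library 12 of 12 days (0.0472). The ratio of CLPB3 to CLPB4 in TPM was 0.908, 0.956 and 1.03 in geralt, against 3.24, 2.23 and 2.84 in wild type. With CLPB3 lower and CLPB4 higher in every geralt library, this ratio had to separate the groups, so it adds no support.

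At 12 days CLPB3 had 29.8, 23.8 and 34.7 CPM in geralt, against 30.1, 28.1 and 45 CPM in wild type, and the groups overlapped (log2 fold change -0.22, SE 0.21, edgeR adjusted p = 0.601). CLPB4 had 23.3, 18.9 and 19 CPM in geralt, against 14, 13.3 and 14.6 CPM in wild type, without overlap (log2 fold change 0.55, SE 0.19, edgeR adjusted p = 0.163). The ratio of CLPB3 to CLPB4 in TPM was 1.3, 1.34 and 1.89 in geralt, against 2.19, 2.19 and 3.21 in wild type, without overlap, as CLPB4 alone was. CLPB1 (HSP101), the cytosolic disaggregase needed for acquired heat tolerance, had 11.3, 8.16 and 13.1 CPM in geralt, against 3.04, 3.44 and 6.52 CPM in wild type, at 12 days, without overlap (log2 fold change 1.32, SE 0.40, edgeR adjusted p = 0.123). At 5 days it had 18.8, 9.37 and 21.4 CPM in geralt, against 6, 13.1 and 12.2 CPM in wild type, with geralt library 3 inside the wild-type range (log2 fold change 0.66, SE 0.39, edgeR adjusted p = 0.48).

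Cytosolic chaperones had a median log2 fold change of 0.66 at 5 days and 1.21 at 12 days over the 14 members, all tested. At 12 days 7 of 14 were apart, each higher in geralt (10.2% of all genes), and at 5 days 4 were apart as higher (12.9%) and 1 as lower (14.3%). The 4 include HSP17.6C, which passed the low-count filter through its geralt libraries and does not support that count. MED37C (AT3G12580, chr3:3991117-3993886), a heat-inducible HSP70 of the cytosol, had the smallest p of all members at 12 days, when it had 161, 147 and 183 CPM in geralt, against 53.5, 45.3 and 58.7 CPM in wild type. At 5 days it had 318, 215 and 415 CPM in geralt, against 76.7, 222 and 114 CPM in wild type. The groups were apart at 12 days, and at 5 days wild-type library 4 lay above geralt library 3. The log2 fold change was 1.64 at 12 days (SE 0.36, edgeR adjusted p = 0.0535, 0.000633 to 0.152 over the alternatives) and 1.20 at 5 days (SE 0.35, edgeR adjusted p = 0.152, 0.0156 to 0.464). Without wild-type library 4 MED37C passed at both ages, with an edgeR adjusted p of 0.0356 at 5 days and 0.0263 at 12 days.

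MED37E (AT5G02500, chr5:553745-556623), the constitutive HSP70, had its larger difference at the earlier age. At 5 days it had 6069, 6041 and 5503 CPM in geralt, against 2995, 3711 and 3455 CPM in wild type, and at 12 days it had 3851, 5638 and 4274 CPM in geralt, against 3286, 4501 and 5146 CPM in wild type. The groups were apart at 5 days and overlapped at 12 days. The log2 fold change was 0.79 at 5 days (SE 0.28, edgeR adjusted p = 0.228) and 0.09 at 12 days (SE 0.28, edgeR adjusted p = 0.891). The ratio of MED37C to MED37E in TPM overlapped at 5 days, at 0.0532, 0.036 and 0.0759 in geralt, against 0.0259, 0.0602 and 0.0332 in wild type. At 12 days it was apart, at 0.0423, 0.0264 and 0.0435 in geralt, against 0.0165, 0.0102 and 0.0116 in wild type. The other cytosolic HSP70s overlapped between genotypes at both ages, with log2 fold changes at 5 and 12 days of 0.39 and 0.56 for HSP70-3, 0.21 and 0.85 for MED37D, and -0.23 and 0.00 for HSP70-5.

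Of the cytosolic HSP90s, the heat-inducible HSP90-1 (AT5G52640, chr5:21352557-21355147) had 11.9, 11.1 and 14.4 CPM in geralt, against 3.2, 2.67 and 5.31 CPM in wild type, at 12 days. At 5 days it had 18.6, 10.3 and 26.9 CPM in geralt, against 5.82, 16.5 and 13.1 CPM in wild type. The groups were apart at 12 days and overlapped at 5 days, with a log2 fold change of 1.74 at 12 days (SE 0.42, edgeR adjusted p = 0.0733, 0.00323 to 0.247 over the alternatives) and 0.65 at 5 days (SE 0.41, edgeR adjusted p = 0.499). The constitutive HSP81-2 had 139, 105 and 96.5 CPM in geralt, against 71, 44.6 and 65.6 CPM in wild type, at 12 days, and 136, 116 and 145 CPM in geralt, against 112, 113 and 88.4 CPM in wild type, at 5 days. HSP81-2 was apart at both ages (edgeR adjusted p = 0.078 at 12 days and 0.524 at 5 days).

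Small heat shock proteins of the cytosol differed widely between libraries of a group. Over the 6 members, all tested, the median log2 fold change was 1.28 at 5 days and 1.46 at 12 days. HSP17.6 (AT5G12020, chr5:3882231-3883111, 1 exon) had 4.61, 1.63 and 3.03 CPM in geralt, against 0.795, 1.55 and 1.42 CPM in wild type, at 5 days, and 0.361, 0.622 and 0.754 CPM in geralt, against 0.177, 0.233 and 0.25 CPM in wild type, at 12 days. Its genotypes were apart at both ages (5 days: log2 fold change 1.29, SE 0.46, edgeR adjusted p = 0.225; 12 days: log2 fold change 1.38, SE 0.50, edgeR adjusted p = 0.171). HSP17.7 had 1.43, 1.87 and 3.97 CPM in geralt, against 0.318, 0.621 and 0.571 CPM in wild type, at 12 days, apart (edgeR adjusted p = 0.144), and it overlapped at 5 days. HSP17.6C rested on few reads at 5 days, 186 in geralt and 32 in wild type, of which geralt library 1 held the highest level, at 2.07, 0.31 and 0.275 CPM in geralt against 0.0256, 0.168 and 0.173 CPM in wild type (edgeR adjusted p = 0.297). HSP18.1 had the opposite order at 5 days, with 1.35, 0.605 and 1.47 CPM in geralt, against 4.08, 1.84 and 2.48 CPM in wild type (log2 fold change -1.29, SE 0.69, edgeR adjusted p = 0.423). At 12 days HSP18.1 had 2.63, 1.16 and 0.873 CPM in geralt, against 0.99, 0.155 and 0.167 CPM in wild type (log2 fold change 1.82, SE 0.72, edgeR adjusted p = 0.202, and 0.0385 without wild-type library 6). HSP17.4A and HSP17.8 had log2 fold changes of 1.48 and 0.38 at 5 days and of 1.53 and 1.11 at 12 days, and only HSP17.8 at 12 days was apart among these 4 comparisons. Geralt library 11 had the highest summed level of the 2 tested seed markers in its group. It also had the highest summed level of these 6 small heat shock proteins in its group at 12 days, at 10.3 CPM beside 6.66 and 5.8 CPM. Wild-type library 12 had more of the seed markers, 10.8 CPM against 3.67 CPM in geralt library 11. Its level of the 6 small heat shock proteins was 2.64 CPM, beside 2.37 and 2.25 CPM in its group. The part of the seed-marker differences in the result was not tested.

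The summed TPM of the 12 small heat shock proteins of all compartments was 90, 30.8 and 94 in geralt, against 19.9, 50.6 and 22.4 in wild type, at 5 days, and 50.9, 22.1 and 35.9 in geralt, against 6.2, 4.64 and 10.3 in wild type, at 12 days. A large part of this sum was the mitochondrial HSP23.5. It had 35.3, 13.3 and 32.7 TPM in geralt, against 6.06, 15.5 and 7.3 TPM in wild type, at 5 days. At 12 days it had 33.4, 9.69 and 14 TPM in geralt, against 1.63, 1.45 and 5.44 TPM in wild type. The sum therefore does not describe all 12 genes alike. TPM carries no TMM scaling. In TMM-scaled CPM the 10 tested small heat shock proteins summed to 25.9, 13.2 and 20.9 in geralt, against 4.56, 4.17 and 6.9 in wild type, at 12 days. In both measures the groups overlapped at 5 days through wild-type library 4 and geralt library 3, and were apart at 12 days. Both sums include HSP23.6 and HSP17.6C, which passed the low-count filter through geralt libraries and do not support that difference.

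**Figure D3:**
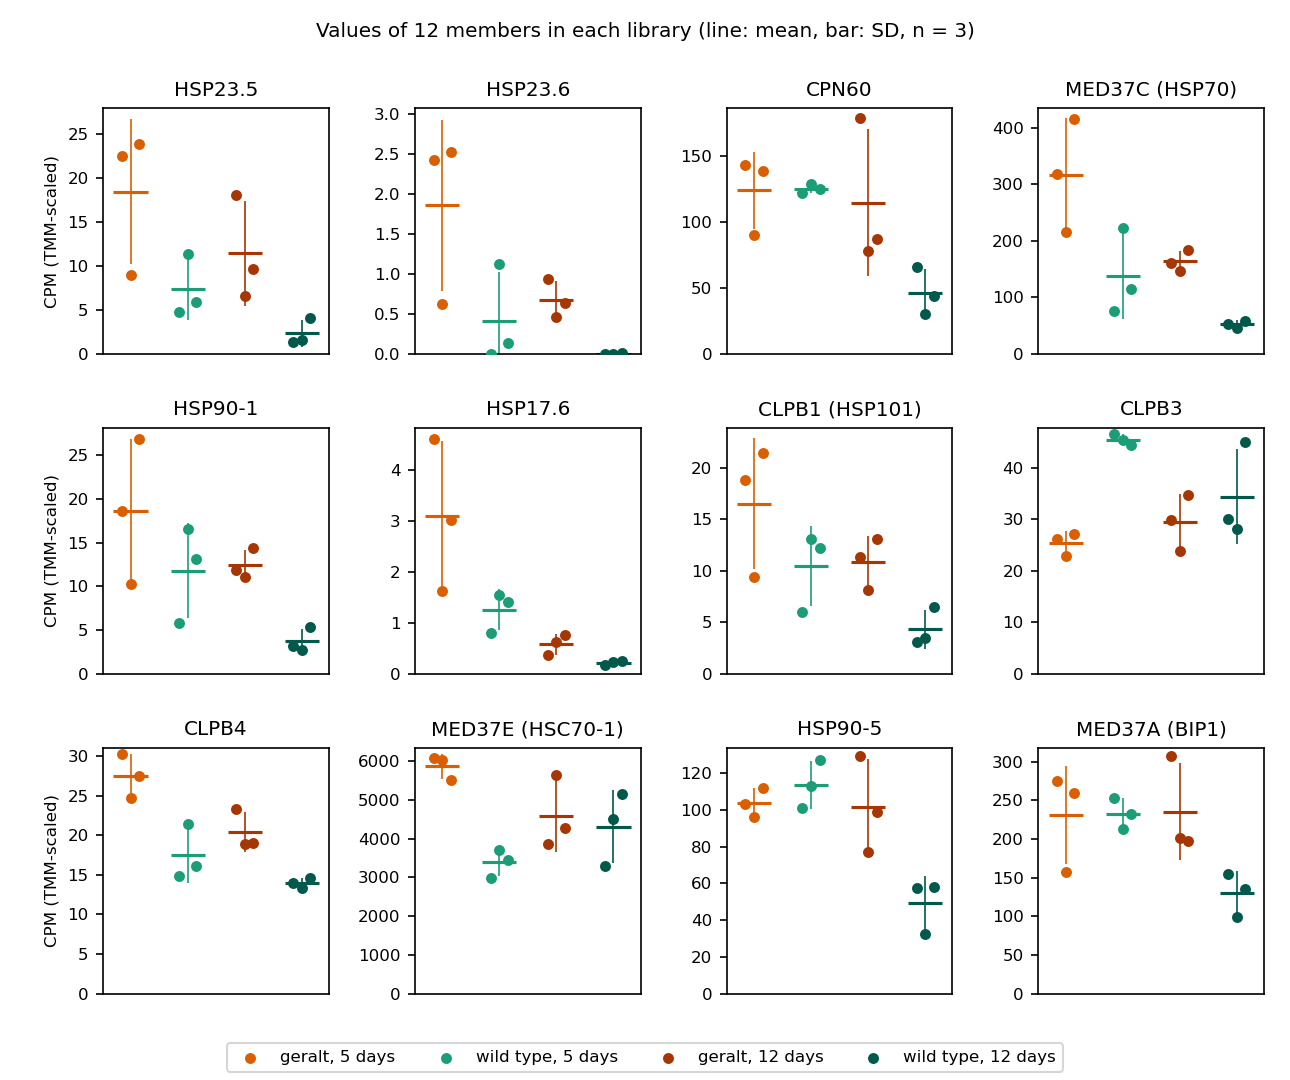
CPM of 12 members in each library (points; horizontal line, mean; vertical bar, SD, n = 3), with geralt left of wild type at each age and every linear axis starting at 0. CLPB3 is lower in geralt at 5 days, and MED37C, HSP90-1 and HSP90-5 are apart between genotypes at 12 days.

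Plastid chaperones other than CLPB3 overlapped between genotypes at 5 days. Over the 4 of 5 tested, the median log2 fold change was -0.19 at 5 days and 0.48 at 12 days. HSP90-5 (AT2G04030, chr2:1281754-1286144), the HSP90 of the stroma, had 129, 77 and 98.6 CPM in geralt, against 57.6, 32.4 and 58.1 CPM in wild type, at 12 days, and 103, 96.2 and 112 CPM in geralt, against 101, 113 and 127 CPM in wild type, at 5 days. It was apart at 12 days and overlapped at 5 days (12 days: log2 fold change 1.04, SE 0.26, edgeR adjusted p = 0.0747; 5 days: log2 fold change -0.13, SE 0.25, edgeR adjusted p = 0.867). HSP70-6, a stromal HSP70 of protein import, overlapped at both ages, with 511, 316 and 465 CPM in geralt, against 398, 269 and 337 CPM in wild type, at 12 days. Its paralog HSP70-7 had 177, 142 and 191 CPM in geralt, against 121, 71.3 and 142 CPM in wild type, at 12 days (edgeR adjusted p = 0.208). It was counted as apart by less than the digits shown, since geralt library 9 and wild-type library 12 both had 142 CPM. HSP21, the plastid small heat shock protein, had 21 reads in geralt and 17 in wild type at 5 days, and 0 reads in geralt and 3 in wild type at 12 days.

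ER chaperones had log2 fold changes under 0 for 4 of 4 tested at 5 days, with a median of -0.32, and over 0 for 3 of 4 at 12 days, with a median of 0.51. At 5 days the sign did not hold in every alternative for 2 of the 4: MED37A reached 0.20 without geralt library 3, and MED37B reached 1.21 without wild-type library 2. MED37A (BIP1), an HSP70 of the ER lumen, had 308, 201 and 198 CPM in geralt, against 155, 99.3 and 136 CPM in wild type, at 12 days, and 275, 158 and 260 CPM in geralt, against 253, 213 and 232 CPM in wild type, at 5 days. It was apart at 12 days (log2 fold change 0.86, SE 0.27, edgeR adjusted p = 0.133) and overlapped at 5 days (-0.01, SE 0.27, edgeR adjusted p = 0.99). Its near-identical copy BIP (BIP2) had log2 fold changes of -0.26 at 5 days and 0.48 at 12 days, and since unique reads were as low as 89.2% for MED37A and 87.9% for BIP, the split between them is uncertain. HSP90-7, the ER HSP90, had 133, 116 and 142 CPM in geralt, against 197, 146 and 167 CPM in wild type, at 5 days, with geralt below wild type in every library (log2 fold change -0.38, SE 0.28, edgeR adjusted p = 0.582). At 12 days it had 194, 141 and 103 CPM in geralt, against 106, 65.1 and 132 CPM in wild type, with overlap. MED37B (BIP3), the BIP induced by ER stress, had at most 0.618 CPM in geralt and 2.15 CPM in wild type in any library. HSP22.0 had 4 reads in geralt and 6 in wild type at 5 days, and 2 reads in geralt and 0 in wild type at 12 days.

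**Figure D4:**
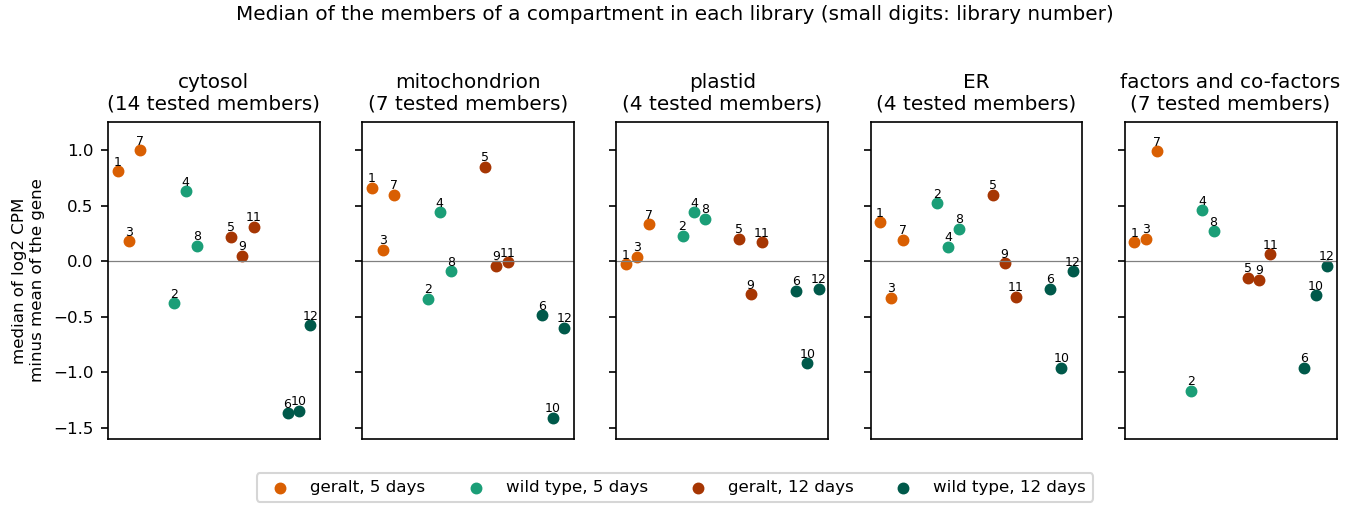
Median over the tested members of each compartment of log2 CPM minus the gene's mean over 12 libraries, 1 point per library with its number, geralt left of wild type at each age. Wild-type library 10 is the lowest point for mitochondrial, plastid and ER members (-1.41, -0.92 and -0.96), and geralt library 5 is the highest for mitochondrial and ER members (0.85 and 0.60).

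Among the 7 factors and co-factors, all tested, 6 had log2 fold changes over 0 at 5 days (median 0.65) and 5 at 12 days (median 0.79). ROF1, a co-chaperone of HSP90, had 50.8, 27.3 and 33.4 CPM in geralt, against 22, 13.1 and 19.8 CPM in wild type, at 12 days, and 37.9, 29.6 and 50.6 CPM in geralt, against 39.8, 44.1 and 44.2 CPM in wild type, at 5 days. It was apart at 12 days (log2 fold change 1.02, SE 0.28, edgeR adjusted p = 0.0936) and overlapped at 5 days (-0.12, SE 0.27, edgeR adjusted p = 0.893). HSFB1, a class B factor that acts as a repressor, was apart at both ages, at 11.9 ± 0.6 CPM in geralt, against 7.8 ± 1.76 CPM in wild type, at 5 days (SD, n = 3 each), and 10.3, 14.1 and 8.31 CPM in geralt, against 7.8, 7.07 and 4.06 CPM in wild type, at 12 days (edgeR adjusted p = 0.361 and 0.171). The co-activator MBF1C was apart at 12 days, at 5.3, 5.11 and 8.47 CPM in geralt, against 1.73, 4.01 and 2.74 CPM in wild type. The heat-induced activator HSFA2 overlapped at both ages, with 0.851, 1.07 and 3.78 CPM in geralt, against 0.103, 2.05 and 1.04 CPM in wild type, at 5 days. The other factors overlapped too, with log2 fold changes at 5 and 12 days of 0.91 and -0.20 for the activator HSFA7A, 0.68 and -0.54 for HSFB2A, and 0.50 and 0.25 for HSFB2B. The peroxisomal HSP15.7 and the unassigned HSP26.5 had 119 and 185 reads in all libraries, with log2 fold changes of -0.43 and 0.44 at 5 days and of 1.51 and -0.87 at 12 days.

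With age, most members had lower values at 12 than at 5 days, with larger differences in wild type. In geralt 32 of 38 tested members were under 0 (46.7% of all genes), with a median of -0.26, and in wild type 35 of 38 were under 0 (48.3% of all genes), with a median of -0.89; the median of all genes was 0.02 in each genotype. EdgeR called 0 members in either genotype, as it called 0% of all genes. At an unadjusted p under 0.05, 0 were higher and 4 lower in geralt (2.56% and 2.05% of all genes), and 1 was higher and 21 lower in wild type (10.6% and 9.17% of all genes). DESeq2 called 1 member as lower in geralt, HSP17.6 (0.102% of all genes), and 13 as lower in wild type (2.21%), while limma voom called 0 in each (0%). Every 12-day library lay below every 5-day library for 4 members in geralt (4.65% of all genes) and for 19 in wild type (12.1%), and the reverse held for 0 members in each (4.73% and 10.8%). By compartment, the median in wild type was -1.33 for the cytosol, -0.72 for plastids, -0.94 for mitochondria, -0.79 for the ER and -1.15 for the factors, and in geralt it was -0.59, -0.04, -0.25, 0.02 and -0.38 in the same order.

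**Figure D5:**
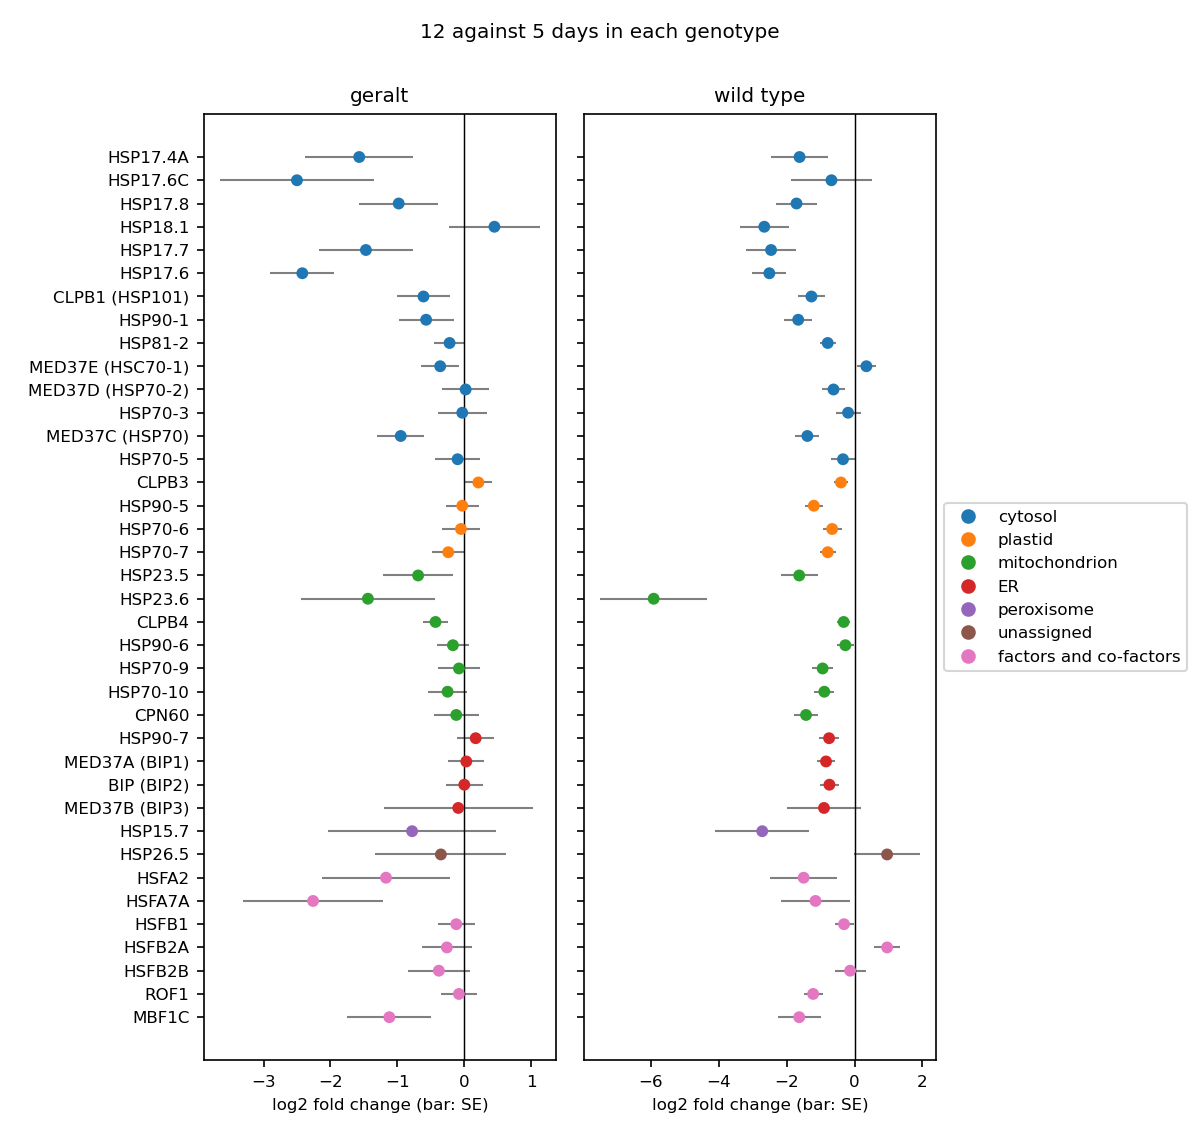
Log2 fold change of 12 against 5 days (points; bars, standard errors of the edgeR fit) for the 38 tested members in geralt (left) and wild type (right, with its own axis range), colored by compartment. In wild type 35 points lie left of 0, and in geralt the 7 mitochondrial points lie between -1.44 and -0.08.

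The age difference was compared between genotypes as an interaction, for which 31 of 38 members were over 0 (51.1% of all genes) with a median of 0.61 (0.02 over all genes). EdgeR called 0 members (0% of all genes), with 7 higher and 1 lower at an unadjusted p under 0.05 (4.84% and 5.5%), and DESeq2 (0.379% of all genes) and limma voom (0%) called 0 each, so a difference in age effect between genotypes was not shown for any member. HSP90-5 had an age difference of -0.03 in geralt (SE 0.25) and -1.20 in wild type (SE 0.26), with an interaction of 1.17 (SE 0.36, edgeR adjusted p = 0.438). CPN60 had -0.12 in geralt (SE 0.34) and -1.43 in wild type (SE 0.35), with an interaction of 1.32 (SE 0.49, edgeR adjusted p = 0.449). ROF1 had -0.08 in geralt (SE 0.27) and -1.22 in wild type (SE 0.28), with an interaction of 1.14 (SE 0.39, edgeR adjusted p = 0.438). HSP17.6 was lower at 12 days by a like amount in both, at -2.42 in geralt (SE 0.48, edgeR adjusted p = 0.556) and -2.51 in wild type (SE 0.50, edgeR adjusted p = 0.142), with every 12-day library below every 5-day library. In wild type, leaving out library 6 brought HSP90-5 (edgeR adjusted p = 0.0472), CPN60 (0.045) and HSP18.1 (0.0389) past the threshold. These age comparisons use the same libraries as the genotype comparisons.

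Partners of the chaperones and further heat-induced genes outside the set of 40 were counted in lists. The cytosolic list also holds chaperones of the same families as the members, namely HSP17.6A, HSP17.6B, HSP90-3, HSP90-4, HSP70-14 and AT1G79920. It holds the heat-induced genes DREB2A and GOLS1 too, so its counts are not of co-chaperones alone. Of 19 cytosolic co-chaperones and heat-induced partners tested, 15 were over 0 at 12 days (48.4% of all genes), with a median of 0.46, and edgeR called 2, both higher (0.8% of all genes were called in either direction). ATJ2, a J-protein that brings substrates to HSP70, had 133, 143 and 109 CPM in geralt, against 73.5, 61.7 and 52 CPM in wild type (log2 fold change 1.04, SE 0.19, edgeR adjusted p = 0.0367). FKBP65 (ROF2), the homolog of ROF1, had 17.2, 10.2 and 12.9 CPM in geralt, against 4.95, 3.42 and 4.57 CPM in wild type (log2 fold change 1.64, SE 0.31, edgeR adjusted p = 0.0403). Both calls held without wild-type library 4, wild-type library 6 or geralt library 11 and were lost without any of the other 9 libraries, where the adjusted p reached 0.114 for ATJ2 and 0.135 for FKBP65. At 5 days edgeR called 0 of the 19 (median 0.27), with 3 higher at an unadjusted p under 0.05 (6.5% of all genes).

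The plastid chaperonins and partners, 7 of 7 tested, had a median of -0.24 at 5 days and 0.66 at 12 days, and CPN60B2 had 125, 65.9 and 109 CPM in geralt, against 51.5, 21 and 29.7 CPM in wild type, at 12 days (log2 fold change 1.56, SE 0.35, edgeR adjusted p = 0.0588). The 3 mitochondrial chaperonins had a median of 0.01 at 5 days and 1.08 at 12 days. The 12 genes of ER folding and the unfolded protein response had -0.07 and 0.17, and the 14 tested other heat shock factors had 0.18 and -0.11. EdgeR called 0 genes of these 4 lists at either age. At an unadjusted p under 0.05 2 other heat shock factors were higher at 5 days (6.5% of all genes). At 12 days 4 plastid, 3 mitochondrial and 1 ER gene and 2 other heat shock factors were higher (9.47% of all genes), and 1 other heat shock factor was lower (9.49%).

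In the authors' deposited table for 5 days, 7 members were higher in geralt at an FDR under 0.05 (4.81% of all genes), namely HSP17.4A, HSP17.6C, HSP17.6, HSP23.5, HSP23.6, MED37E and MED37C, and 2 were lower (5.51%), HSP18.1 and CLPB3. In the authors' deposited table for 12 days, 5 members were higher (1.17% of all genes), HSP17.7, HSP23.5, HSP23.6, HSP90-1 and MED37C, and 0 were lower (1.48%). HSP23.5, HSP23.6 and MED37C are in both lists. The authors' deposited table gave HSP23.5 a log2 fold change of 1.32 at 5 days (FDR 0.00347) and 2.27 at 12 days (FDR 0.000839), and CLPB3 one of -0.84 at 5 days (FDR 0.00282). The authors' deposited tables do not name their test.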

How the data were processed

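The authors deposited counts of total, unique, exon and intron reads per gene and TPM values for each library, per the file headers. TAIR10 is the build in the submitters' processing notes, and aligner and counter were not given in the sources used here. Tables of log2 fold changes and p-values for both genotype comparisons were also deposited. TPM served for levels between genes, for ratios of genes within a library and for the summed level of the small heat shock proteins. Total gene reads were analysed with edgeR 4.0.16: filterByExpr, TMM, and the quasi-likelihood test on a mean per group over 12 libraries (8 residual degrees of freedom), with Benjamini-Hochberg adjustment over all genes tested and a threshold of 0.05. CPM are TMM-scaled counts per 1000000 reads, and log2 CPM carries a prior count of 2. DESeq2 1.42.0, limma 3.58.1 voom, other scalings, filters and read types, and leaving out each library were tried. The edgeR fits of both genotype comparisons were also run on simulated data, and the outcome is not reported here. The genes described were taken by a rule: the 4 smallest p per comparison, and the most abundant member of each family in each compartment, with partners past the threshold or among the 2 smallest p at an age; the remaining members are given more briefly so that each is accounted for. Members, lists, motifs and the rule were chosen with earlier results of these data known. Promoter windows were read from TAIR10.1, where 40 of 40 members have the same start and end as in the files. Replicate numbers in the titles run from 1 to 12 over the 4 groups. The lane of a library is not given, so it was no term. Intervals take reads as independent.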

Additional observations from a re-analysis of the deposited data

How the results depend on the processing

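The direction of the member median held under all alternatives run: 0.42 at 5 days (0.15 without geralt library 7 to 0.62 without wild-type library 4) and 0.94 at 12 days (0.76 to 1.10). Counts of members called by edgeR were 0 in all 5 comparisons. At 5 days 4 were called by DESeq2 and 4 by limma voom, 1 with only the groups compared, 1 without wild-type library 4 and geralt library 5, and 0 to 1 with each library left out. At 12 days 13 were called by DESeq2, 1 with no filter on low counts (MED37C, adjusted p = 0.0486) and 0 to 2 with each library left out, which were MED37C and HSP23.6 without wild-type library 4, and CPN60 and HSP18.1 without wild-type library 6. For 12 against 5 days DESeq2 called 1 in geralt and 13 in wild type, and with each library left out 0 in geralt and 0 to 3 in wild type. For the interaction no alternative called a member. Where a count differed between tools, the cause was not tested. No paired analysis was possible because no replicate number occurs in more than 1 group and the labels name no pairs. Depth limits HSP21, HSP22.0, HSP15.7, HSP26.5 and MED37B, whose reads are few, and 3 libraries per group limit every p.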
